A study of Rattus norvegicus with 9 samples.

Results

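The genes described here encode the nuclear subunits of the oxidative phosphorylation system, as measured in rat lung by oligonucleotide arrays. They were chosen by symbol alone: every probe set that the array annotation gives a single symbol beginning Nduf (assembly factors of the Ndufaf series apart), Sdh, Uqcr or Atp5, or Cox4 to Cox8, together with Cyc1 and Cycs. This gave 99 of the 8740 probe sets, which stand for 55 of the 4736 genes with a single symbol. Of the 55, 53 were bright enough to be tested, and the other two, Ndufs1 and the pseudogene Cox6c-ps1, were not. The symbol rule also takes in Sdhaf2, which is an assembly factor of complex II and not a subunit, so Sdhaf2 and Cox6c-ps1 are kept apart from the complexes. The 24 complex I genes, 1 complex II gene, 4 complex III genes, 11 complex IV genes and 10 ATP synthase genes were described by complex, and the muscle isoforms Cox6a2 and Cox8b and the lung isoform Cox4i2 on their own. Another 7 probe sets carry several symbols, a subunit gene among them, and were left out. No probe set with the single symbol Cycs, the mobile carrier cytochrome c, was found.

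The arrays form a layout of 2 by 2. Rats (strain, age and sex are not given in the sources used here) breathed on their own or were mechanically ventilated, with 21% oxygen, the level of room air, or with 100% oxygen. The groups are called spontaneous 21%, spontaneous 100%, mechanical 21% and mechanical 100% below, and each holds 2 samples, named a and b. Sample b of mechanical 100% was hybridised to 2 arrays, which were averaged and counted once, so that 9 arrays gave 8 samples. Whether samples a and b are different animals is not stated in the labels, and the p-values below reflect no more than the scatter between such samples, possibly a technical one. The duration of ventilation and of oxygen breathing is not given in the sources used here.

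Oxidative phosphorylation couples the transfer of electrons from nutrients to oxygen with the synthesis of ATP in the inner mitochondrial membrane. Complexes I and II pass electrons from NADH and succinate to ubiquinone, complex III passes them on to cytochrome c, and complex IV, cytochrome c oxidase, hands them to oxygen. Complexes I, III and IV pump protons, and ATP synthase uses the gradient. Most subunits are encoded in the nucleus and the rest in mitochondrial DNA. A few complex IV subunits exist as isoforms that mark a tissue, with Cox6a2 and Cox8b typical of heart, skeletal muscle and brown fat, their partners Cox6a1 and Cox8a found widely, and Cox4i2 found mainly in lung. Muscle and brown fat are rich in mitochondria, and the cell types of the lung differ widely in how many they hold.

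Several features of the arrays bear on what follows. Levels are linear intensities as deposited. The 2% trimmed mean of each array was between 800.5 and 801.1, and levels of different probe sets are not compared. The number of arrays limits the precision. The brightest signals were lower in 1 group: for mechanical 100% (3 arrays) the 99th percentile of intensity ran from 7111 to 8352, and for the other arrays from 9934 to 14547. Among the brightest 10% of all tested genes (318 genes) the median log2 change was -0.32 for ventilation in 100% oxygen, -0.33 for oxygen under ventilation and -0.26 for both exposures together, and many subunit genes are bright. Of those 318 genes, 135 were called lower with ventilation in 100% oxygen, 138 with oxygen under ventilation and 106 with both exposures, by the rule given with the counts of subunit genes below. For either exposure alone, 21 (ventilation) and 31 (oxygen) of them were called higher, and 68 had a called negative interaction. A line headed as a lot batch, with no lot after it, stands in the description of 4 arrays: both spontaneous 21% arrays, mechanical 100% sample a and 1 of the 2 arrays of mechanical 100% sample b. The line thus falls almost exactly between the groups with no or both exposures and the groups with 1. Only mechanical 100% sample b was measured on both kinds of array, and there the median log2 difference over the 53 tested genes, array without the line minus array with it, was -0.05. Of 10 lung markers on the array, 9 were bright enough to test, and the other, the endothelial gene Vwf, was below 0 in 3 samples. The summed intensity of the 10 was 86428 to 100489 in spontaneous 21%, 61223 to 77440 in spontaneous 100%, 72037 to 75957 in mechanical 21% and 45887 to 51078 in mechanical 100%. Markers of fat, skeletal muscle and T cells also differed between groups, and their values are given with the subunits they move with. In a bulk sample, fewer cells of a type and less RNA per cell cannot be told apart.

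The stretches before the start sites of 4 of these genes are shown first, because the isoform pair Cox8b and Cox8a and the muscle form Cox6a2 carry the results on isoforms, and Atp5po holds the only perfect copy of the site of nuclear respiratory factor 1 (NRF1), a transcription factor of mitochondrial genes. The sequences are the 250 bases before the annotated start in RefSeq (build GRCr8), read in the direction of the gene. Sdhaf2 and Cox6c-ps1 were not looked up, and entries were matched by symbol for 45 of the remaining genes. Capitals mark matches to any of 4 motifs searched on both strands: the palindromic core bound by NRF1, CCGGAAG (the core of ETS factors, among them nuclear respiratory factor 2), CCAAT and TATAAA, the last added after the sequences were seen. Cox8b lies at chr1:205408274-205408523, Cox8a at chr1:213833624-213833873, Cox6a2 at chr1:192219717-192219966 and Atp5po at chr11:44657484-44657733, each on the minus strand.
Cox8b: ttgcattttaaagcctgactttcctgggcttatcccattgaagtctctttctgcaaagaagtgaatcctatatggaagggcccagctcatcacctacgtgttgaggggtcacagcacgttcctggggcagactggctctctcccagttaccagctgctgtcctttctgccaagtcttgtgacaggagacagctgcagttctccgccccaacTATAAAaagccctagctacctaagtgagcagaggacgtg
Cox8a: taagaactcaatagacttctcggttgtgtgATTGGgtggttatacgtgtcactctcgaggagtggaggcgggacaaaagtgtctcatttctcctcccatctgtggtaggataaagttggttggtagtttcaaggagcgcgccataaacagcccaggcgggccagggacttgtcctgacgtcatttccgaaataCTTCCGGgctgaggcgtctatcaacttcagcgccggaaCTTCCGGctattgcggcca
Cox6a2: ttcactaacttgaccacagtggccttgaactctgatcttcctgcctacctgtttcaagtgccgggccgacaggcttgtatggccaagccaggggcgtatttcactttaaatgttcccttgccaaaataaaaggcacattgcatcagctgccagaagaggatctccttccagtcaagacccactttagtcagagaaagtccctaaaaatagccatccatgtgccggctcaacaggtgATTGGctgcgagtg
Atp5po: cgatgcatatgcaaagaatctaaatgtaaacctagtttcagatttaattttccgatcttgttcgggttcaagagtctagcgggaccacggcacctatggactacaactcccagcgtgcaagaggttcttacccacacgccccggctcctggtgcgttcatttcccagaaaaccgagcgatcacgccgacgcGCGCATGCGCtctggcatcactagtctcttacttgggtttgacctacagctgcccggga
The muscle form Cox8b held TATAAA with its first base 39 bases before the start and none of the other motifs. Its widely expressed partner Cox8a held CCGGAAG on the opposite strand at 57 and at 19 bases before the start, and CCAAT on the opposite strand at 220 bases. Cox6a2 held CCAAT on the opposite strand at 14 bases. Over the 45 member windows, CCGGAAG was present in 8 (17.8%, against 7.78% of the 27457 RefSeq windows of the same length), CCAAT in 16 (35.6%, against 34.2%), TATAAA in 2 (4.44%, against 13.1%) and the NRF1 core in 1 (2.22%, against 0.852%). The 8 genes with CCGGAAG were Atp5f1a, Atp5pf, Cox5b, Cox8a, Ndufa6, Ndufs1, Ndufs8 and Uqcrc2, and those with TATAAA were Cox8b and Ndufs6. A match describes the letters of the window and is not a tested site.

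**Figure D1:**
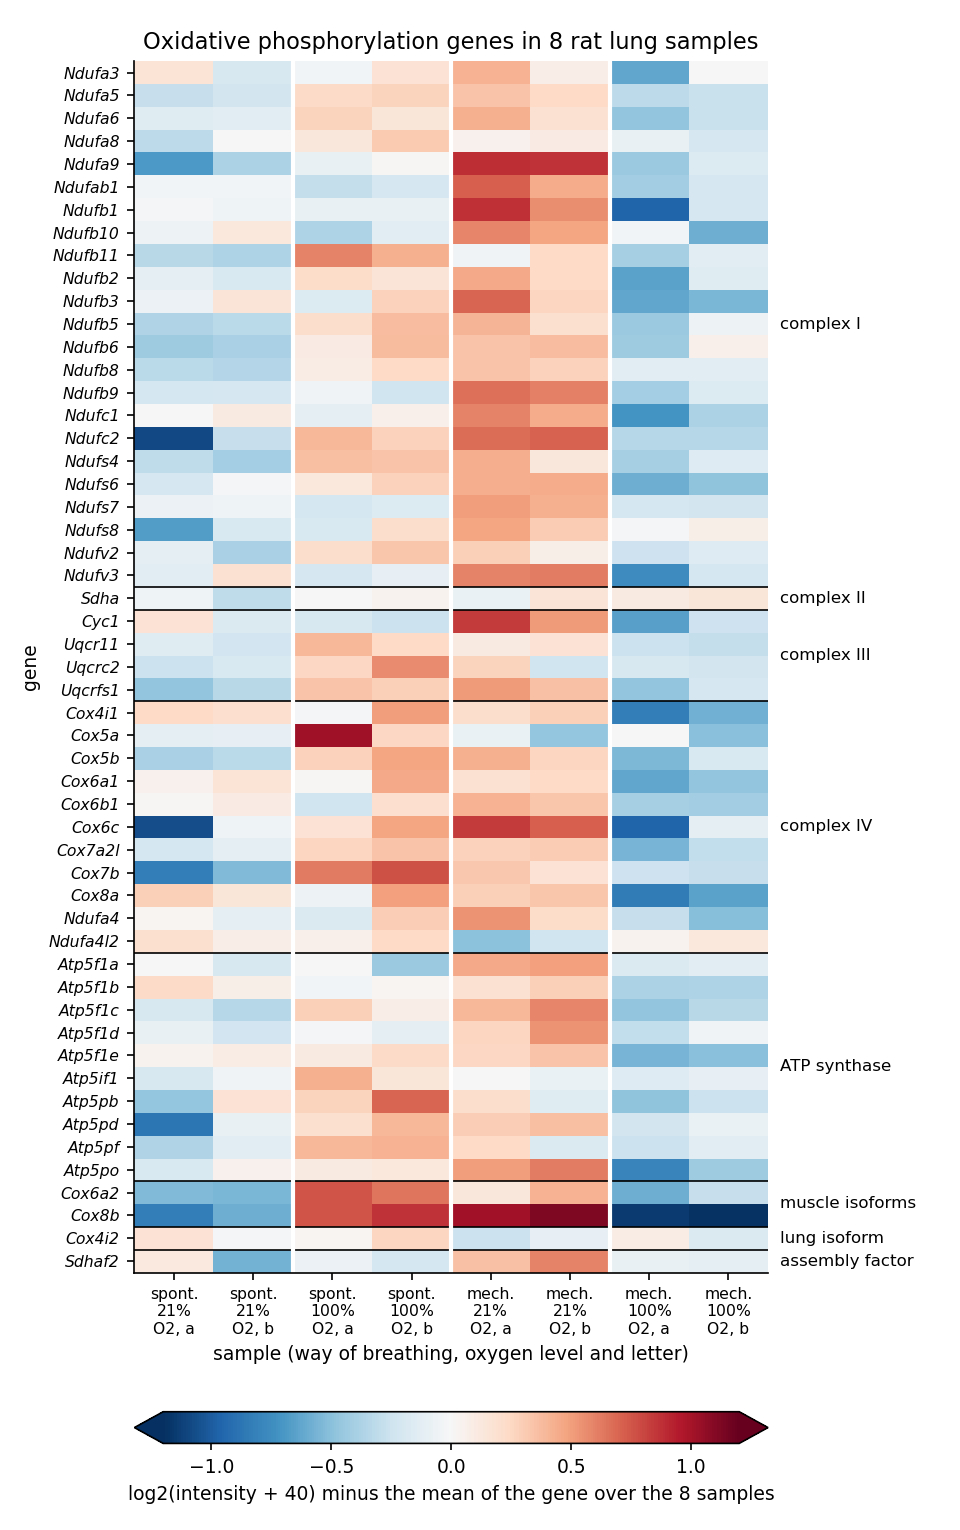
Each row is 1 of the 53 tested genes, ordered by complex, and each column is 1 of the 8 samples. Colour is log2(intensity + 40) minus the mean of that gene over the 8 samples (colours end at 1.2 on either side, and a value beyond is drawn in the end colour). The spontaneous 100% and mechanical 21% columns are mostly red and the spontaneous 21% and mechanical 100% columns mostly blue, with Sdha, Cox4i2 and Ndufa4l2 among the rows that differ.

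Each exposure alone went with higher subunit mRNA, and adding the second exposure went with lower. Ventilation in 21% oxygen raised 25 of the 53 tested genes and lowered 0, where 6.66% of all 3181 tested genes were higher and 6.98% lower, and the median log2 change was 0.53 (all genes -0.05). Changes were taken on log2(intensity + 40), which understates those of dim genes, and a gene was called changed at a Benjamini-Hochberg adjusted p under 0.05 in limma. Oxygen with spontaneous breathing raised 17 and lowered 0 (6.51% of all genes higher, 9.9% lower), with a median of 0.34 (all genes -0.05). In 100% oxygen, ventilation instead lowered 28 and raised 0 (9.31% of all genes lower, 16.3% higher, and 135 of the 318 brightest lower), with a median of -0.54 (all genes 0.11). Under ventilation, oxygen lowered 38 and raised 1, Ndufa4l2 (13.7% of all genes lower, 19.9% higher, and 138 of the 318 brightest lower), with a median of -0.68 (all genes 0.12). With both exposures against neither, 7 were lower and 0 higher (5.66% lower and 6.76% higher among all genes), with a median of -0.09 (all genes 0.09). That count is a smaller share than the 106 of 318 among the brightest genes. The interaction, the ventilation change in 100% oxygen minus that in 21% oxygen, was called for 40 genes, all negative (10.6% of all genes negative, 16.4% positive), with a median of -0.97 (all genes 0.15). At an unadjusted p under 0.05 in limma, the directions with 0 calls held 1 gene for ventilation in 21% oxygen, 0 for oxygen with spontaneous breathing, 0 for ventilation in 100% oxygen, 2 for both exposures together and 0 for the interaction.

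The order of the samples can be read without a test. In 25 of the 53 genes (47.2%) all 4 samples with 1 exposure lay above all 4 samples with none or both, against 6.7% of all tested genes and 13.8% of the brightest 10%, and in 0 they all lay below (11.8% of all genes). The group mean was highest in mechanical 21% for 35 genes, in spontaneous 100% for 17 and in mechanical 100% for 1, and lowest in mechanical 100% for 30 and in spontaneous 21% for 19. These counts were not made over all genes. Of the 318 brightest genes, 242 had a negative change with ventilation in 100% oxygen and 233 with both exposures against neither. The 25 genes came from every complex with more than 1 member: 13 of 23 in complex I, 2 of 4 in complex III, 4 of 11 in complex IV, 4 of 10 in ATP synthase, and both muscle isoforms.

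Several counts depended on single samples or on how the lot line was treated, and in each fit named here the matching count over all tested probe sets fell too. Ventilation in 21% oxygen called 10 genes without spontaneous 21% sample a, 13 without sample b, and 8 without either of the mechanical 21% samples. Oxygen with spontaneous breathing called 7 without spontaneous 21% sample a, 5 without spontaneous 100% sample a and 6 without sample b. Ventilation in 100% oxygen called 13 lower without spontaneous 100% sample b and 6 without mechanical 100% sample a, and oxygen under ventilation called 23 lower without mechanical 100% sample a. The interaction called 25 without mechanical 21% sample a. With the lot line as a block over the 9 arrays, the counts were 1 for ventilation in 21% oxygen (Cox8b), 2 for oxygen with spontaneous breathing (Cox7b and Cox8b), 7 for ventilation in 100% oxygen, 24 for oxygen under ventilation and 2 for the interaction (Cox7b and Cox8b). The median log2 changes in that fit were 0.45, 0.25, -0.50, -0.57 and -0.97 in the same order. Over all 5244 tested probe sets, the matching calls went from 367 to 51, 370 to 68, 545 to 130, 756 to 345 and 551 to 59. Spontaneous 21% was measured only on arrays with the line, and spontaneous 100% and mechanical 21% only on arrays without it. For ventilation in 21% oxygen, oxygen with spontaneous breathing and the interaction, the block therefore rests on the 3 mechanical 100% arrays, in which the difference between samples a and b is mixed with that between arrays with and without the line. For ventilation in 100% oxygen and oxygen under ventilation, the changes in that fit take mechanical 100% from 1 array only, that of sample b without the line. That fit also counts the 2 arrays of mechanical 100% sample b as 2 samples. Beyond it, the line and the exposures cannot be told apart.

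Complex I takes electrons from NADH and is the largest complex of the chain. Of its 23 tested genes, ventilation in 21% oxygen raised 12 (6.66% of all genes) and oxygen with spontaneous breathing raised 8 (6.51%). Ventilation in 100% oxygen lowered 10 (9.31% of all genes, but 135 of the 318 brightest, a share close to this one). Oxygen under ventilation lowered 18 (13.7% of all genes, 138 of the 318 brightest). The interaction was negative and called for 19 (10.6% of all genes, 68 of the 318 brightest). All 23 had a positive change for ventilation in 21% oxygen, from 0.24 to 1.42, and all 23 a negative interaction, from -2.05 to -0.56. Intensities below are given as samples a and b of spontaneous 21%, spontaneous 100%, mechanical 21% and mechanical 100%, in that order.

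Ndufa9, an accessory subunit at the joint of the matrix and membrane arms, measured 466 and 589, 730.2 and 786, 1476 and 1456, and 559 and 690.2. Both mechanical 21% samples stood far above the others, and the spontaneous 100% samples came next. Its log2 change with ventilation in 21% oxygen was 1.42 ± 0.17, adjusted p = 0.0022, with oxygen under ventilation -1.19 ± 0.17, adjusted p = 0.0019, and the interaction was -1.69 ± 0.24, adjusted p = 0.0022. Ndufc2, a small subunit of the membrane arm, measured 1197 and 2114, 3406 and 3126, 4124 and 4231, and 2021 and 2026. Its spontaneous 21% samples differed from each other by more than any other pair of its replicates, and the samples with 1 exposure did not overlap the rest. The interaction was -2.05 ± 0.32, adjusted p = 0.0031, and the rise with ventilation in 21% oxygen was 1.37 ± 0.23, adjusted p = 0.0079. Ndufs6, an accessory subunit that binds zinc, measured 2666 and 3022, 3368 and 3737, 4183 and 4211, and 2043 and 2191, an order in which the 4 groups did not overlap. It fell with oxygen under ventilation (-0.97 ± 0.12, adjusted p = 0.0011) and with ventilation in 100% oxygen (-0.74 ± 0.12, adjusted p = 0.0052).

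Other complex I genes were highest in 1 of the 2 groups with a single exposure. Ndufab1, the mitochondrial acyl carrier protein, measured 3318 and 3322, 2767 and 2946, 5604 and 4637, and 2538 and 2953. Ndufs7, a core subunit with an iron-sulfur cluster close to the ubiquinone site, measured 1636 and 1657, 1488 and 1531, 2460.4 and 2329.7, and 1481 and 1474. Ndufb9, of the distal membrane arm, measured 3649 and 3686, 4102 and 3569.5, 6718 and 6446, and 3189 and 3771. In these genes the mechanical 21% samples were the highest, the other groups lay close together, and in Ndufab1 and Ndufs7 the spontaneous 100% samples lay below the spontaneous 21% samples. Their changes with ventilation in 21% oxygen were 0.61 ± 0.13, adjusted p = 0.022 for Ndufab1, 0.53 ± 0.11, adjusted p = 0.018 for Ndufs7 and 0.84 ± 0.13, adjusted p = 0.0059 for Ndufb9. Ndufb11, also of the distal membrane arm, measured 2431 and 2364, 4659 and 4127, 2982 and 3621, and 2314 and 2809, so that here the spontaneous 100% samples were the highest. It rose with oxygen in spontaneous breathing (0.86 ± 0.15, adjusted p = 0.0082) and fell with ventilation in 100% oxygen (-0.77 ± 0.15, adjusted p = 0.0093), while its change with ventilation in 21% oxygen was 0.45 ± 0.15, adjusted p = 0.078.

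Ndufa5, Ndufs4 and Ndufb8 rose with each exposure alone. Ndufa5, an accessory subunit of the ubiquinone-binding part, measured 1802 and 1877, 2584 and 2655, 2792 and 2595, and 1761 and 1823. The 4 samples with 1 exposure lay above the other 4, and the interaction was -1.08 ± 0.15, adjusted p = 0.0023. Ndufs4, an accessory subunit needed for a stable NADH-oxidising part, measured 2035 and 1891, 3258 and 3206, 3436 and 2769, and 1900.2 and 2257, with an interaction of -1.27 ± 0.20, adjusted p = 0.0034. Ndufb8, of the distal membrane arm, measured 3851 and 3778, 5156 and 5698, 6122 and 5881, and 4397 and 4412, and its rise with ventilation in 21% oxygen was 0.65 ± 0.11, adjusted p = 0.0078. Ndufc1, a small membrane arm subunit, measured 2178 and 2349.6, 2016 and 2265, 3295 and 2971, and 1308 and 1658 and was the only complex I gene called with both exposures against neither (-0.61 ± 0.15, adjusted p = 0.028). Its mechanical 100% samples were the lowest and its spontaneous groups overlapped. Over the remaining tested complex I genes (Ndufa3, Ndufa6, Ndufa8, Ndufb1, Ndufb2, Ndufb3, Ndufb5, Ndufb6, Ndufb10, Ndufs8, Ndufv2 and Ndufv3) the interaction ran from -1.25 in Ndufb1 to -0.56 in Ndufb10. Of those 12, Ndufa3, Ndufa8, Ndufb10 and Ndufs8 were not called for it. The core subunit Ndufs1 measured 75 and 46, 70.1 and 16.5, 43.2 and 38.5, and 199 and 35.8, too dim to test.

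Complex II, which also works in the citrate cycle, was represented by the flavoprotein subunit Sdha alone. Sdha measured 2359 and 1977, 2439.5 and 2519.9, 2319 and 2729, and 2645 and 2716. The mechanical 21% samples spanned those of both 100% groups and overlapped spontaneous 21%, while the other three groups did not overlap each other. No comparison called Sdha, and its interaction was -0.11 ± 0.19, adjusted p = 0.71. The assembly factor Sdhaf2, which helps to insert the flavin into Sdha, measured 1306 and 798, 1141 and 1033, 1544 and 1834, and 1127 and 1106 and was not called either (0.70 ± 0.22, adjusted p = 0.066 with ventilation in 21% oxygen).

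Complex III passes electrons from ubiquinol to cytochrome c, and all 4 of its measured subunits had a called negative interaction (10.6% of all genes). The Rieske iron-sulfur protein Uqcrfs1 measured 3511 and 3861, 6187 and 5954, 6964 and 6239, and 3503 and 4237. Its samples with 1 exposure all lay well above the other 4. It rose with ventilation in 21% oxygen (0.83 ± 0.13, adjusted p = 0.0070) and with oxygen in spontaneous breathing (0.71 ± 0.13, adjusted p = 0.011), and fell with ventilation in 100% oxygen (-0.65 ± 0.13, adjusted p = 0.012) and with oxygen under ventilation (-0.77 ± 0.13, adjusted p = 0.0040). All 3 probe sets of Uqcrfs1 gave a called negative interaction, from -1.48 to -1.01.

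The other three complex III genes were each called for 1 of the exposures alone. Cyc1, cytochrome c1, measured 2071 and 1623, 1597 and 1531, 3317 and 2634, and 1157 and 1544, highest in the mechanical 21% samples, and rose with ventilation in 21% oxygen (0.68 ± 0.19, adjusted p = 0.048), a call lost in 14 of the 21 other settings. Its change with oxygen in spontaneous breathing was -0.22 ± 0.19, adjusted p = 0.45. Uqcr11, a small subunit, measured 4863 and 4567, 7082 and 6356, 5806 and 6047, and 4472 and 4410.5, highest in the spontaneous 100% samples, and rose with oxygen in spontaneous breathing (0.51 ± 0.11, adjusted p = 0.020), while its change with ventilation in 21% oxygen was 0.33 ± 0.11, adjusted p = 0.083. Uqcrc2, a core protein on the matrix side, measured 2521 and 2655, 3598 and 4470.3, 3631 and 2553, and 2637 and 2588 and rose with oxygen in spontaneous breathing (0.62 ± 0.18, adjusted p = 0.048), a call lost in 15 of the 21 other settings. Its mechanical 21% samples were far apart, with sample b within the range of the spontaneous 21% samples.

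Complex IV reduces oxygen to water. Leaving the tissue isoforms apart, ventilation in 21% oxygen raised 4 of its 11 genes (6.66% of all genes) and oxygen with spontaneous breathing raised 3 (6.51%). Ventilation in 100% oxygen lowered 6 (9.31% of all genes, 135 of the 318 brightest). Oxygen under ventilation lowered 9 (13.7% of all genes, 138 of the 318 brightest) and raised 1 (19.9% of all genes). The interaction was called negative for 9 (10.6% of all genes, 68 of the 318 brightest). Cox7b, a small subunit needed for assembly of the complex, measured 1317 and 1623, 3675 and 4053, 2973 and 2682, and 1980.1 and 1945. The groups did not overlap, with spontaneous 100% the highest and spontaneous 21% the lowest. Its log2 change was 1.38 ± 0.14, adjusted p = 7.6e-04 with oxygen in spontaneous breathing and 0.93 ± 0.14, adjusted p = 0.0050 with ventilation in 21% oxygen. It was -0.96 ± 0.14, adjusted p = 0.0034 with ventilation in 100% oxygen, and the interaction was -1.89 ± 0.19, adjusted p = 5.8e-04, which with the lot line as a block was -1.97 (adjusted p = 0.024 in limma, with the 2 arrays of mechanical 100% sample b counted as 2).

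Cox5b, which binds zinc on the matrix side, and Cox7a2l, which joins complexes III and IV into supercomplexes, both had their 4 samples with 1 exposure above the other 4. Cox5b measured 4205 and 4414, 6724 and 7685, 7422 and 6599, and 3799.8 and 4865, with an interaction of -1.43 ± 0.21, adjusted p = 0.0025. Cox7a2l measured 3209 and 3424, 4455 and 4739, 4519 and 4614, and 2525 and 3026, with an interaction of -1.18 ± 0.17, adjusted p = 0.0025. Both rose with each exposure alone, but for Cox7a2l each of these calls was lost in 13 of 21 other settings. With the lot line as a block, the Cox7a2l changes were 0.23 with ventilation in 21% oxygen and 0.24 with oxygen in spontaneous breathing. Cox6c, another small subunit, measured 243 and 530.2, 626 and 777, 1014 and 933, and 262 and 504 on its brighter probe set. Its pairs in spontaneous 21% and in mechanical 100% were far apart, and the interaction was -2.20 ± 0.52, adjusted p = 0.017. Its second probe set, at 179 and 222, 181 and 239, 250.4 and 69.2, and 422 and 339, had an interaction of the opposite sign that was not called (1.17, adjusted p = 0.18).

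In several bright complex IV genes the mechanical 100% samples were the lowest. Cox4i1, the widely expressed form of subunit 4, measured 11036 and 10760.0, 9170.3 and 13272, 10803 and 11382, and 5257 and 6314. The mechanical 100% samples lay below all others. On this brightest probe set Cox4i1 was not called for either exposure alone (0.03 ± 0.18, adjusted p = 0.94 with ventilation, 0.02 ± 0.18, adjusted p = 0.96 with oxygen). It fell with both exposures against neither (-0.92 ± 0.18, adjusted p = 0.012). Of the 3 probe sets of Cox4i1, 1 was called higher with oxygen in spontaneous breathing (0.63), and the remaining one changed by -0.03 there. Cox6b1, on the side of the complex that meets cytochrome c, measured 5900.2 and 6223, 4939.8 and 6699, 7803 and 7329, and 4398 and 4349 and fell with oxygen under ventilation (-0.79 ± 0.15, adjusted p = 0.0061). Ndufa4, once counted with complex I and now with complex IV, measured 4593 and 4175, 3986 and 5533, 6584 and 5263, and 3730.5 and 3154 and fell in the same comparison (-0.77 ± 0.19, adjusted p = 0.014). The brightest signals as a whole were lower on the mechanical 100% arrays (values above), and the part of this in the fall of bright subunit genes was not tested.

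The complex IV genes that did not follow the rest were Cox5a and Ndufa4l2. Cox5a was measured by a dim probe set at 131 and 133, 335 and 181, 136 and 95.2, and 146 and 91 and was not called in any comparison. Ndufa4l2, the paralogue of Ndufa4 that low oxygen induces in many cells, measured 1046 and 965, 955 and 1081, 635 and 768, and 938 and 999. The mechanical 21% samples were the lowest, and the gene rose with oxygen under ventilation (0.45 ± 0.15, adjusted p = 0.048), a call lost in 17 of 21 other settings, although 4 of its 5 probe sets passed in that comparison. Its change with ventilation in 21% oxygen was -0.50 ± 0.15, adjusted p = 0.059, and all 5 of its probe sets had a negative sign there. All of these probe sets carry a suffix that, in the naming of the array maker, marks probes shared by similar transcripts, so the gene measured is uncertain. The brightest probe sets of Cox8b, Cox6a2, Cox6a1, Cox4i1, Cox5b, Ndufc1 and Atp5pd carry another suffix of that naming (s_at). Whether the probes of these sets match other transcripts was not tested.

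The muscle isoforms can be set beside the partner that each replaces. On the brightest probe sets of the 53 genes, Cox8b had the largest change for each exposure alone, for each exposure added to the other, and for the interaction. Cox8b measured 367 and 443, 1178 and 1274, 1409 and 1534, and 285 and 278. The samples with 1 exposure lay between 1178 and 1534 and all others between 278 and 443. The gene rose with ventilation in 21% oxygen (1.77 ± 0.15, adjusted p = 4.4e-04) and with oxygen in spontaneous breathing (1.51 ± 0.15, adjusted p = 7.8e-04). It fell with ventilation in 100% oxygen (-1.98 ± 0.15, adjusted p = 2.1e-04) and with oxygen under ventilation (-2.23 ± 0.15, adjusted p = 8.1e-05), and its interaction was -3.74 ± 0.22, adjusted p = 4.4e-05. The second probe set of Cox8b, at 329.8 and 413, 1090.2 and 1169, 1413 and 1360.4, and 94.2 and 166, gave an interaction of -4.61 ± 0.32, adjusted p = 1.0e-04. On that probe set Cox8b was also called lower with both exposures than with neither (-1.30), which the brighter one was not (-0.46). With the lot line as a block the interaction on the brighter probe set was -4.02 (adjusted p = 0.0043 in limma), in a fit that counts the 2 arrays of mechanical 100% sample b as 2.

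Its partner Cox8a, whose start region is printed above beside that of Cox8b, measured 13032 and 11790.3, 10218 and 14989, 12975 and 13456, and 5942 and 6899. Cox8a overlapped between the spontaneous 21%, spontaneous 100% and mechanical 21% groups and was lower only in mechanical 100%. Its changes were 0.09 ± 0.18, adjusted p = 0.78 with ventilation in 21% oxygen and -0.0022 ± 0.18, adjusted p = 0.996 with oxygen in spontaneous breathing, and it fell by 0.95 with ventilation in 100% oxygen (adjusted p = 0.0093).

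Cox6a2 measured 933 and 921, 2337 and 2164, 1507 and 1841, and 897 and 1120.4, with spontaneous 100% above mechanical 21% and both above the rest. It rose with oxygen in spontaneous breathing (1.24 ± 0.15, adjusted p = 0.0023) and with ventilation in 21% oxygen (0.82 ± 0.15, adjusted p = 0.013), and its interaction was -1.95 ± 0.22, adjusted p = 8.1e-04. A second probe set of Cox6a2, at 149 and 178, 1269 and 1449, 799.8 and 645, and 333 and 479, gave an interaction of -3.57 ± 0.30, adjusted p = 2.2e-04. It rose by 1.90 with ventilation in 21% oxygen and by 2.78 with oxygen in spontaneous breathing, more than either probe set of Cox8b. On that probe set Cox6a2 was also higher with both exposures than with neither (1.12 ± 0.21, adjusted p = 0.011), which the brighter one did not show (0.11 ± 0.15, adjusted p = 0.68), and another probe set was below 0 in every sample. Its partner Cox6a1 measured 9458 and 10265, 9219 and 12529, 10385 and 10765, and 5926 and 6607. As with Cox8a, only the mechanical 100% samples of Cox6a1 stood apart on this brightest probe set. Its changes were 0.10 ± 0.16, adjusted p = 0.71 for ventilation in 21% oxygen and -0.78 ± 0.16, adjusted p = 0.011 for ventilation in 100% oxygen. Of the 3 probe sets of Cox6a1, 1 was called higher with ventilation in 21% oxygen (0.73), and the remaining one changed by -0.07 there. The difference between a muscle isoform and its partner was not tested.

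Cox4i2, the isoform of subunit 4 that lung makes and that favours efficient use of scarce oxygen, measured 2389.8 and 2090.0, 2142 and 2537, 1765 and 1967, and 2255 and 1876. Both mechanical 21% samples lay below all 4 spontaneous samples, and the other groups overlapped. Cox4i2 was not called in any comparison, and its interaction was 0.08 ± 0.21, adjusted p = 0.80.

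**Figure D2:**
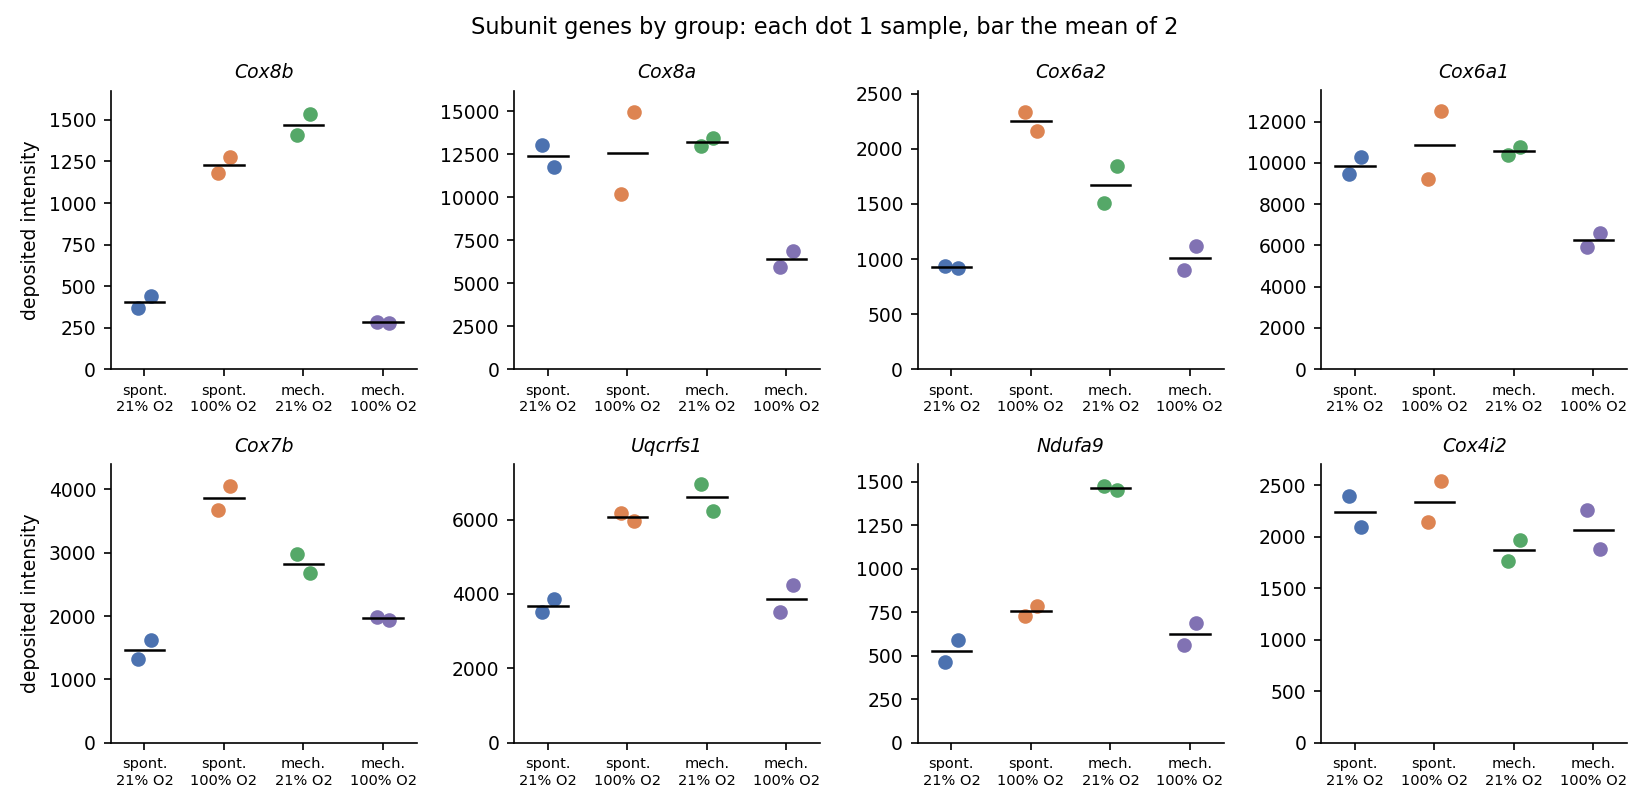
Deposited intensity (linear scale from 0) of 8 subunit genes in the 4 groups, each dot 1 sample and each bar the mean of the 2 samples. Cox8b, Cox6a2, Cox7b and Uqcrfs1 are higher in both groups with 1 exposure than in the groups with none or both. Ndufa9 is highest with ventilation in 21% oxygen, Cox8a and Cox6a1 are lowest in mechanical 100%, and Cox4i2 is lowest in mechanical 21%, where only mechanical 100% overlaps it.

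ATP synthase makes ATP from the proton gradient. Ventilation in 21% oxygen raised 5 of its 10 genes (6.66% of all genes). Oxygen with spontaneous breathing raised 1, Atp5pf, a share near that of all genes (6.51%). Ventilation in 100% oxygen lowered 7 (9.31% of all genes, 135 of the 318 brightest) and oxygen under ventilation 6 (13.7%, 138 of the 318 brightest). The interaction was called negative for 6 (10.6% of all genes, 68 of the 318 brightest). In the catalytic head, the gamma subunit Atp5f1c measured 2901 and 2617, 4045 and 3498, 4371 and 4983, and 2377 and 2629. The samples with 1 exposure all lay above the others, with changes of 0.75 ± 0.13, adjusted p = 0.0098 for ventilation in 21% oxygen and -1.33 ± 0.19, adjusted p = 0.0022 for the interaction. The epsilon subunit Atp5f1e measured 7954 and 8197, 8339.8 and 9069.9, 9208 and 9782, and 5226 and 5456, where mechanical 100% was far below the rest (-0.70 ± 0.11, adjusted p = 0.0046 for ventilation in 100% oxygen). The delta subunit Atp5f1d measured 3363 and 3033, 3511 and 3321, 4277 and 5208, and 2897 and 3459 and rose with ventilation in 21% oxygen (0.56 ± 0.14, adjusted p = 0.037), a call lost in 13 of 21 other settings.

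The alpha subunit Atp5f1a and the catalytic beta subunit Atp5f1b form the ring of the head. Atp5f1a measured 4181 and 3649, 4198 and 3062, 5764 and 5897, and 3710.3 and 3805 and rose with ventilation in 21% oxygen (0.57 ± 0.16, adjusted p = 0.047), a call lost in 13 of 21 other settings. Atp5f1b measured 11438 and 10292, 9551 and 9919, 11074 and 11927, and 7492 and 7553 and fell with both exposures against neither (-0.53 ± 0.11, adjusted p = 0.017). That fall of Atp5f1b depended on scaling: with quantile normalization its change was 0.22 (adjusted p = 0.21).

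In the stalk that holds the head, Atp5po, the subunit that confers sensitivity to oligomycin, measured 4630.2 and 5446, 5677 and 5735, 7453 and 8071, and 3028 and 3913. Mechanical 21% was the highest and mechanical 100% the lowest, without overlap with any other group, and the interaction was -1.35 ± 0.21, adjusted p = 0.0032. Atp5pf, coupling factor 6, measured 2717 and 3194, 4625 and 4694, 4139 and 3099.9, and 2914 and 3195 and rose with oxygen in spontaneous breathing (0.65 ± 0.16, adjusted p = 0.028). Atp5pd, another stalk subunit, measured 2365 and 4068, 4959 and 5718, 5348 and 5595, and 3731 and 4166, with a wide gap between the 2 spontaneous 21% samples and an interaction of -1.25 ± 0.32, adjusted p = 0.022. Atp5pb, the membrane-anchored part of the stalk, measured 3574 and 5579, 5967 and 8051, 5752 and 4475, and 3527 and 4146 and fell with ventilation in 100% oxygen (-0.86 ± 0.24, adjusted p = 0.033), and its interaction was -1.04 ± 0.34, adjusted p = 0.053. The inhibitor Atp5if1, which blocks reversal of the enzyme when respiration stops, measured 2679.9 and 2977, 4155 and 3405, 3075 and 2899, and 2767 and 2874. Atp5if1 was called only for ventilation in 100% oxygen (-0.41 ± 0.13, adjusted p = 0.0498), a call lost in 17 of 21 other settings. Its probe set carries the same suffix for probes shared by similar transcripts as those of Ndufa4l2, so the gene measured is uncertain here too.

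**Figure D3:**
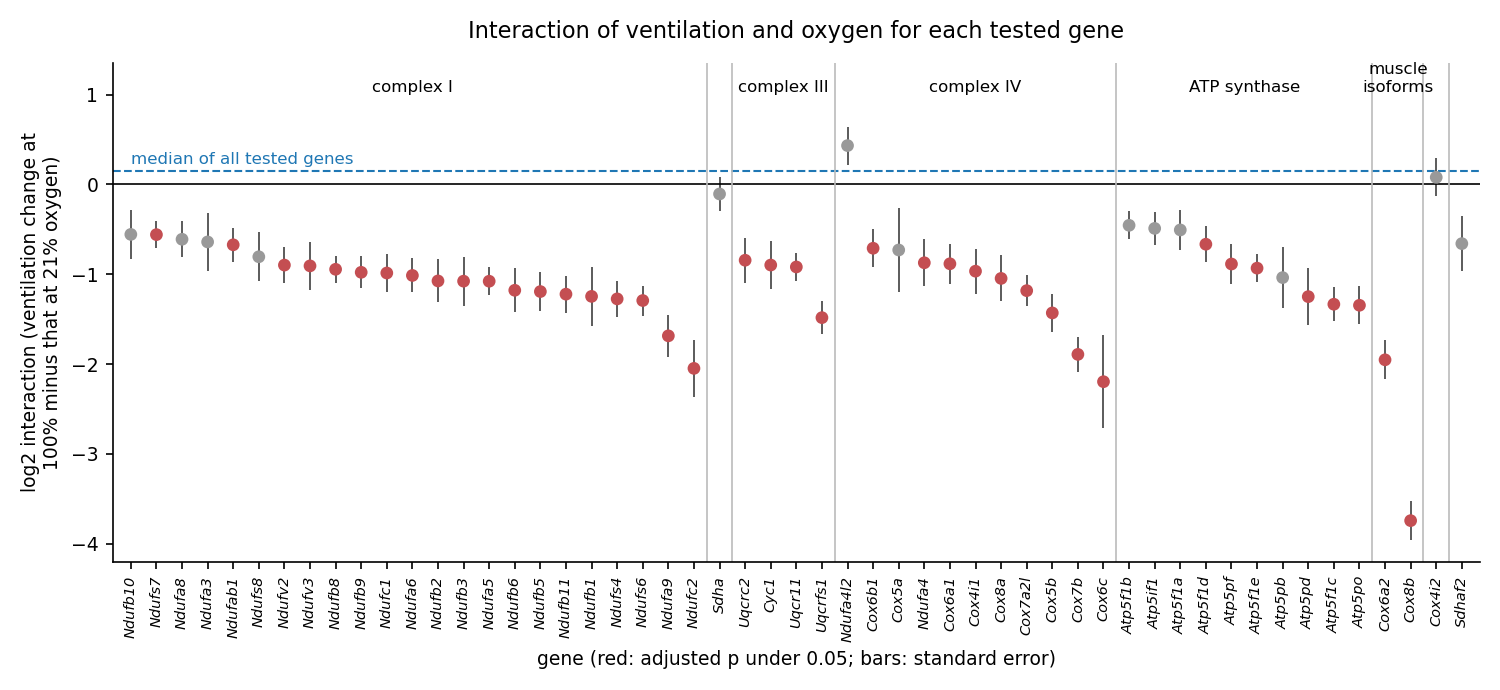
Interaction of ventilation and oxygen (log2 change with ventilation in 100% oxygen minus that in 21% oxygen, vertical axis) for each of the 53 tested genes by complex, with standard errors. Red points have a limma adjusted p under 0.05, and the dashed line is the median of all 3181 tested genes, 0.15. Only Ndufa4l2 and Cox4i2 lie above 0, and Cox8b is the lowest at -3.74.

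Ventilation and oxygen were also compared with each other, as mechanical 21% minus spontaneous 100%, a comparison added after the values were seen. In it 10 genes were higher in mechanical 21% and 0 lower (8.17% of all genes higher, 6.95% lower; 7 lower at an unadjusted p under 0.05 in limma), with a median log2 difference of 0.13 (all genes 0.01). The 10 were the complex I genes Ndufa9, Ndufab1, Ndufb1, Ndufb9, Ndufb10, Ndufc1, Ndufs7 and Ndufv3, the complex III gene Cyc1, and Atp5f1a. The largest differences were those of Ndufa9 (0.92 ± 0.17, adjusted p = 0.011), Cyc1 (0.90 ± 0.19, adjusted p = 0.017) and Ndufab1 (0.83 ± 0.13, adjusted p = 0.0070). These calls depend on the probe set that stands for a gene. Another probe set was called higher for Cox5b, Cox6a1, Cox8a, Uqcr11 and Ndufb6, and lower for Cox6a2 (-0.88) and Ndufa4l2. On the brightest probe sets no complex IV gene was called, and neither was Cox8b (0.26 ± 0.15, adjusted p = 0.29), Cox6a2 (-0.42 ± 0.15, adjusted p = 0.10) or Cox7b (-0.45 ± 0.14, adjusted p = 0.060). The count was 4 without either spontaneous 100% sample, 2 without mechanical 21% sample a and 4 without sample b. None of these arrays carries the lot line.

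With both exposures against neither, the 7 lower genes were Cox8a, Cox4i1 and Cox6a1 of complex IV, Atp5f1e, Atp5f1b and Atp5po of ATP synthase, and Ndufc1 of complex I. The first of them, Cox8a, fell by 0.96 (0.18 SE, adjusted p = 0.011), and Atp5f1e fell by 0.59 (0.11 SE, adjusted p = 0.0094). The count was 1 without spontaneous 21% sample a and 0 without mechanical 100% sample a. Without spontaneous 21% sample b, 4 were lower and 3 higher. With the brightest 10% of probe sets left out, 40 of the genes could be tested and 1 was lower (114 of all probe sets lower, against 368 in the main fit). The calls of Atp5po and Cox6a1 were lost in 12 and 10 of 20 other settings. Probe sets of a gene did not always share the call. Called lower were 2 of 4 for Cox8a, 2 of 3 for Cox4i1 and for Cox6a1, and 1 of 2 for Atp5f1e and for Ndufc1. For Atp5po it was 2 of 2, and 1 probe set of Cox4i1 changed by 0.19.

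How far the probe sets of a gene shared a sign varied with the comparison. Of the 26 genes with several tested probe sets, all had the same sign in 24 for the interaction, 23 for ventilation in 21% oxygen, 22 for oxygen under ventilation and 21 for ventilation in 100% oxygen. The number was 20 for both exposures together, 18 for oxygen with spontaneous breathing, where Cox8a, Cox6a1, Cox4i1 and Uqcr11 were among the 8 with mixed signs, and 15 for mechanical 21% against spontaneous 100%. For the interaction the exceptions were Cox6c (above) and Ndufb8. Ndufb8 had 2 bright probe sets that fell with oxygen under ventilation (-0.44, adjusted p = 0.014, and -0.54, adjusted p = 0.032) and a dim one that rose (2.49, adjusted p = 0.048). The dim probe set of Ndufb8 measured 755 and 468, 501 and 553, 364 and 4.22, and 683 and 736, with 1 value near 0 in mechanical 21% sample b.

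The levels of most subunit genes followed each other over the 8 samples, which share groups and arrays. The Pearson correlation of a gene with the mean of the other 52 was highest for Cox8b (0.97), Ndufs6 (0.97) and Ndufa5 (0.97). It was lowest for Ndufa4l2 (-0.60), Cox4i2 (-0.28), Sdha (-0.01) and Cox5a (0.17). The 5 genes outside the group with the highest correlation with its mean were S100a8 (0.97), Cidea (0.97), Cfd (0.97), Dynlt1 (0.96) and Ucp1 (0.96), all over the same 8 samples. Ucp1, Cidea and Cfd are fat genes: Ucp1, the uncoupling protein of brown fat, Cidea, a lipid droplet protein of brown fat, and Cfd, the fat-secreted protease adipsin. S100a8 is a calcium-binding protein of neutrophils and Dynlt1 a light chain of dynein.

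Several markers of fat moved with the subunits, and a few went the other way. Ucp1 measured 248 and 271, 1098 and 1087, 6179 and 6247, and 37.8 and 31.1 and Cidea 344 and 364, 1005 and 783, 1945 and 2029, and 67.7 and 157, with the mechanical 21% samples the highest, the spontaneous 100% samples next and the mechanical 100% samples the lowest. Of the 10 tested fat markers (13 on the array), 6 were higher and 1 lower with ventilation in 21% oxygen (6.66% of all genes higher, 6.98% lower). With oxygen in spontaneous breathing 5 were higher and 2 lower (6.51% of all genes higher, 9.9% lower), and 7 had a negative and 2 a positive interaction (10.6% negative, 16.4% positive). The summed intensity of the fat list was 28273 to 29636 in mechanical 21%, 13831 to 14108 in spontaneous 100%, 13578 to 13812 in spontaneous 21% and 11038 to 12487 in mechanical 100%. The fat markers Plin1, which coats lipid droplets, and Dio2, which activates thyroid hormone, were below 0 in every sample. The part of fat in the subunit results was not tested.

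Skeletal muscle markers were high in the other group with raised subunits. Tnnc2, troponin C of fast muscle, measured 329.9 and 415, 3674 and 4065, 534 and 469, and 23.8 and 58.5, and Acta1, skeletal actin, measured 1992 and 1804, 7525 and 6713, 3405 and 3495, and 649.7 and 753. Of the 14 tested skeletal muscle markers, 10 were higher and 0 lower with oxygen in spontaneous breathing (6.51% of all genes higher, 9.9% lower). With ventilation in 21% oxygen 3 were higher (6.66% of all genes), and with ventilation in 100% oxygen 10 were lower (9.31%). Their summed intensity was 29011 to 30052 in spontaneous 100%, 9374 to 9406 in mechanical 21%, 6606 to 6846 in spontaneous 21% and 3433 to 3507 in mechanical 100%. The heart list had sums of 30346 to 32488 in spontaneous 100% and 14801 to 20164 in the other groups. In it 9 of 14 tested members had a negative interaction (10.6% of all genes), while the heart myosin Myh6 measured 299.9 and 355, 393 and 426, 279 and 475, and 445 and 442 and was not called. T cell and thymus markers stood out in mechanical 21%, where Cd3g, part of the T cell receptor complex, measured 603 and 474, 375 and 322, 4467 and 4691, and 271 and 263 over the 4 groups, with sums of 31007 to 32897 against 2037 to 3072 elsewhere. The part of muscle, heart and T cells in the subunit results was not tested.

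**Figure D4:**
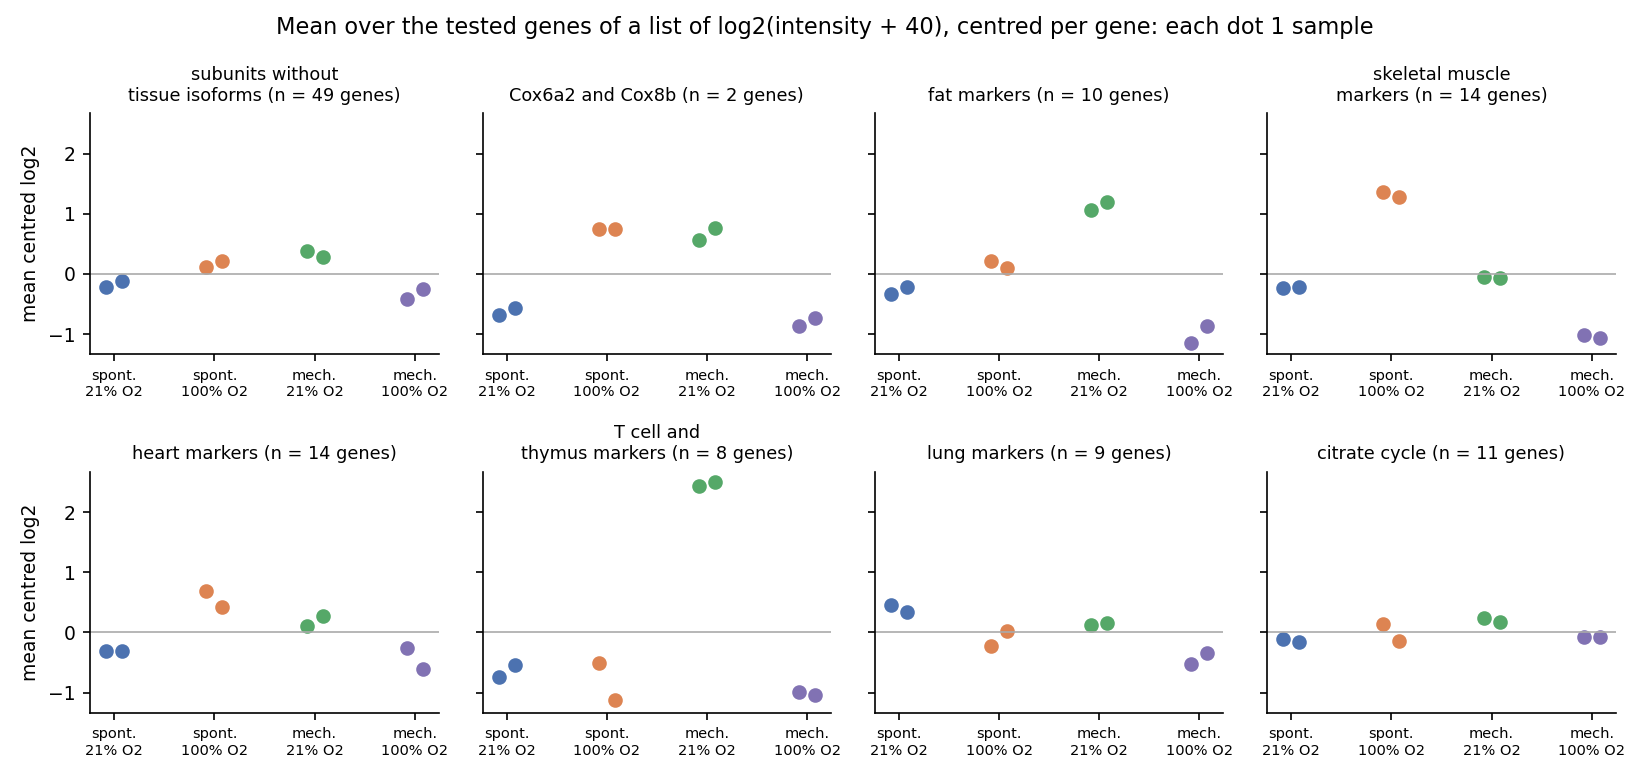
Mean over the tested genes of a list of log2(intensity + 40), centred per gene on its mean over the 8 samples (vertical axis), for 8 lists and the 4 groups, each dot 1 sample. The 49 subunit genes without tissue isoforms range from -0.41 to 0.38 and the pair Cox6a2 and Cox8b from -0.87 to 0.77, both highest in the groups with 1 exposure. Fat and T cell markers peak in mechanical 21% and skeletal muscle and heart markers in spontaneous 100%.

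The rest of the mitochondrial program was read from lists of other genes. The citrate cycle feeds NADH and succinate to the chain. Of its 11 tested genes 1 rose (Idh3g) and 0 fell with ventilation in 21% oxygen, 0 changed with oxygen in spontaneous breathing, 1 rose (Dlst) with ventilation in 100% oxygen, 2 fell (Idh3g and Suclg1) with oxygen under ventilation, and 0 had a called interaction by limma (1 positive and 3 negative at an unadjusted p under 0.05). Among all genes 6.66% were higher with ventilation in 21% oxygen, 16.3% higher with ventilation in 100% oxygen and 13.7% lower with oxygen under ventilation. The median interaction of the citrate cycle genes was -0.42 (all genes 0.15). Citrate synthase, Cs, often used as a measure of mitochondrial mass, measured 722 and 622, 1045 and 745, 699 and 859, and 761 and 779 and was not called (-0.39 ± 0.27, adjusted p = 0.32 for the interaction).

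Fatty acid oxidation delivers electrons to the chain from fat. Of its 16 tested genes, 6 rose and 1 fell with ventilation in 21% oxygen (6.66% of all genes higher, 6.98% lower). With oxygen in spontaneous breathing 1 rose and 3 fell (6.51% of all genes higher, 9.9% lower). With ventilation in 100% oxygen 2 rose and 3 fell (16.3% higher, 9.31% lower). Oxygen under ventilation lowered 13 (13.7% of all genes lower), and 8 had a negative and 1 a positive interaction (10.6% negative, 16.4% positive). Acadl, a dehydrogenase of long chains, measured 1177 and 1481, 1247 and 1513, 2937 and 2981, and 850.5 and 1121, highest in mechanical 21%. Cpt1a, the entry step of long-chain fatty acids in most tissues, went the other way at 1310.3 and 1437, 623 and 471, 835 and 916, and 1065 and 1259, with an interaction of 1.66 ± 0.24, adjusted p = 0.0024. Decr1, which acts on unsaturated fatty acids, measured 943 and 988, 693 and 739, 1847 and 1675, and 466 and 487, with an interaction of -1.39 ± 0.19, adjusted p = 0.0018.

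Among 11 tested mitochondrial carriers and porins, 1 rose with ventilation in 21% oxygen (6.66% of all genes higher). With oxygen in spontaneous breathing 2 rose and 1 fell (6.51% of all genes higher, 9.9% lower). Ventilation in 100% oxygen lowered 4 (9.31% of all genes lower) and oxygen under ventilation lowered 3 (13.7%), and 3 had a negative interaction (10.6%). Slc25a4, the ADP and ATP exchanger typical of heart and muscle, measured 3335 and 3669, 5505 and 6218, 4801 and 4548, and 4030.3 and 3545 (-1.04 ± 0.17, adjusted p = 0.0042 for the interaction). Ckmt2, the mitochondrial creatine kinase of striated muscle, measured 284 and 278, 742 and 720.5, 616 and 561, and 358 and 309.8 (-2.02 ± 0.23, adjusted p = 9.0e-04). Tspo, a cholesterol-binding protein of the outer membrane, measured 7677 and 8332, 9853 and 10083, 8991 and 8989, and 6539.7 and 6728 (-0.75 ± 0.15, adjusted p = 0.0080).

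Few assembly factors and regulators were on the array. Of the 3 tested assembly factors, Uqcc2, for complex III, measured 302 and 578, 897 and 734, 1383 and 1489.8, and 504 and 546 and had a negative interaction (-2.28 ± 0.37, adjusted p = 0.0037), and Sdhaf2 was not called. Ndufaf3, for complex I, measured 699.9 and 1553, 1359 and 1851, 664 and 658, and 279 and 339.7. Its interaction was -1.63 ± 0.46, adjusted p = 0.033, its change with ventilation in 21% oxygen was -0.63 ± 0.32, adjusted p = 0.23, and it fell with both exposures against neither (-1.67 ± 0.32, adjusted p = 0.012). Esrra, an orphan receptor that drives genes of the respiratory chain, measured 202 and 179, 291 and 203, 393 and 429, and 157 and 224 and rose with ventilation in 21% oxygen (0.97 ± 0.24, adjusted p = 0.036), with an interaction of -1.28 ± 0.35, adjusted p = 0.028. No probe set with the single symbol Ppargc1a or Tfam was found, and none for the 13 mitochondrially encoded subunits.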

How the data were processed

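RNA of rat lung was measured on 9 one-colour oligonucleotide arrays. The authors deposited 1 intensity per probe set on a linear scale, read as already scaled because the trimmed means agree; software and version are not given in the sources used here. The 59 control probe sets were removed. The 2 arrays of mechanical 100% sample b were averaged on the log2 scale, which gave 8 samples in 4 groups. Negative intensities were set to 0, 40 was added and log2 taken. The lowest 40% of probe sets by mean over all samples (limit 112) were not tested, which left 5244.

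A model with 1 mean per group was fitted to all samples with limma 3.58.1 in R 4.3.3 (empirical Bayes with a variance trend, 4 residual degrees of freedom). Errors after ± are its standard errors with 2 samples a group. P-values were adjusted by Benjamini-Hochberg over all tested probe sets, for 7 comparisons. A gene was represented by its brightest probe set with a single symbol. Of the probe sets, 7006 had 1 symbol, 308 several and 1426 none. The script was tested on simulated data. The labels' sample letters were not treated as pairs, since deviations of same-letter samples from their group means correlated between -0.128 and 0.0657.

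The members, gene lists and tests were chosen with earlier results of these data known, and mechanical 21% against spontaneous 100%, the leaving out of the brightest 10% and the TATAAA motif were added after values or sequences were seen. Full values are given for up to 3 members of smallest adjusted p per complex and comparison, for tissue isoforms and their partners, and for members whose probe sets disagree in sign with both called (Ndufb8). Those of Ndufc2, Ndufs1, Sdha, Sdhaf2, Cox5a, Cox6b1, Cox6c, Atp5pb, Atp5pd and Atp5if1 were added after their values were seen. Other genes named are up to 3 per list of smallest p, a fixed set of markers, and the 5 most like the members. Alternatives were quantile normalization, other offsets and filters, either array of the doubly measured sample, blocks, no variance trend, only the groups compared, medians over probe sets, and leaving out each sample.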

Additional observations from a re-analysis of the deposited data

Results flagged for a closer look

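The change with ventilation differed between 100% and 21% oxygen in 40 of the 53 tested genes, by the interaction term of the limma fit (adjusted p under 0.05; 10.6% of all tested genes were negative by the same rule). All 40 were negative, so that the log2 change with ventilation was lower in 100% oxygen than in 21% oxygen. In complex I the log2 interaction was -2.05 for Ndufc2, -1.69 for Ndufa9, -1.29 for Ndufs6, -1.27 for Ndufs4, -1.25 for Ndufb1, -1.22 for Ndufb11, -1.19 for Ndufb5, -1.18 for Ndufb6, -1.08 for Ndufa5, -1.08 for Ndufb3, -1.07 for Ndufb2, -1.01 for Ndufa6, -0.99 for Ndufc1, -0.98 for Ndufb9, -0.95 for Ndufb8, -0.91 for Ndufv3, -0.90 for Ndufv2, -0.67 for Ndufab1 and -0.56 for Ndufs7. In complex III the log2 interaction was -1.48 for Uqcrfs1, -0.92 for Uqcr11, -0.90 for Cyc1 and -0.84 for Uqcrc2. In complex IV the log2 interaction was -2.20 for Cox6c, -1.89 for Cox7b, -1.43 for Cox5b, -1.18 for Cox7a2l, -1.05 for Cox8a, -0.97 for Cox4i1, -0.88 for Cox6a1, -0.87 for Ndufa4 and -0.71 for Cox6b1. In ATP synthase the log2 interaction was -1.35 for Atp5po, -1.33 for Atp5f1c, -1.25 for Atp5pd, -0.93 for Atp5f1e, -0.89 for Atp5pf and -0.67 for Atp5f1d. Among the muscle isoforms the log2 interaction was -3.74 for Cox8b and -1.95 for Cox6a2. With the lot line as a block, in a fit that counts the 2 arrays of mechanical 100% sample b as 2, Cox7b and Cox8b remained called. The calls of Atp5f1d, Ndufs7 and Uqcrc2 were lost in 11 of 20 other settings, that of Cox6b1 in 12 of 19 and that of Ndufa4 in 11 of 19.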

How the results depend on the processing

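In each of the 7 comparisons the median log2 change over the subunit genes kept its sign under all 21 other settings (20 for the interaction). The counts of called genes moved more. Without a filter on low values, ventilation in 21% oxygen raised 11 genes, oxygen with spontaneous breathing raised 8, ventilation in 100% oxygen lowered 14, oxygen under ventilation lowered 28, both exposures together lowered 2, the interaction was called for 23, and mechanical 21% exceeded spontaneous 100% in 4. Without a variance trend the counts were 15 and 11 raised by ventilation and by oxygen alone, 18 lowered by ventilation in 100% oxygen, 4 lower with both exposures and 6 higher in mechanical 21% than in spontaneous 100%. Fits of only the groups compared raised 16 (ventilation) and 10 (oxygen). With the lot line as a block the counts were 1, 2, 7, 24 and 2 for ventilation in 21% oxygen, oxygen with spontaneous breathing, ventilation in 100% oxygen, oxygen under ventilation and the interaction. Over all tested probe sets the matching counts were 51, 68, 130, 345 and 59, against 367, 370, 545, 756 and 551 in the main fit. With the brightest 10% of probe sets left out, chosen after seeing the data, 40 subunit genes were tested, of which 17 fell with ventilation in 100% oxygen and 1 with both exposures together. Over all probe sets tested in that setting, 234 and 114 were lower in these comparisons, against 545 and 368 in the main fit.

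The single gene raised by oxygen under ventilation, Ndufa4l2, was lost (0 genes) with quantile normalization, with no filter or the lowest 60% left out, with only the s2A array, with the replicate block, the lot block or no variance trend, with only the groups compared, without the brightest 10%, and without any 1 sample (0 to 0). With a median over a gene's probe sets, 1 gene was higher with both exposures and 2 were lower in mechanical 21% than in spontaneous 100%, and with the lowest 60% left out 1 was lower there. Atp5f1b with both exposures reversed under quantile normalization (0.22). Quantile normalization moved the median of all probe sets for the interaction from 0.15 to -0.01 (888 positive and 551 negative calls became 714 and 680).

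Leaving out 1 sample at a time gave 8 to 26 genes for ventilation in 21% oxygen, 5 to 15 for oxygen with spontaneous breathing, 6 to 29 for ventilation in 100% oxygen, 23 to 40 for oxygen under ventilation, 25 to 37 for the interaction, 0 to 7 lower and 0 to 3 higher for both exposures, and 2 to 10 higher and 0 to 1 lower for mechanical 21% against spontaneous 100%. Where this left a group with 1 sample, that sample was assumed to vary like the other groups. With the sample letter as a replicate block the counts were 21, 16, 22, 38 and 33, in the order ventilation in 21% oxygen, oxygen with spontaneous breathing, ventilation in 100% oxygen, oxygen under ventilation and the interaction; the letters share only a name. The cause of these shifts was not tested. Dim probe sets such as Ndufs1 lie too near background to be read.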
